A study of Mus musculus with 63 samples.

Results

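RNA that was pulled down with synaptopodin was compared with the RNA of the same lysate in non-lesioned wildtype tissue cultures. The data set holds 63 libraries, and the 10 used for this comparison are the 5 co-immunoprecipitation libraries (Synpo-coIP) and the 5 input libraries labelled wildtype control. They were taken by their labels and paired by the biological replicate number, since coIP and input of a number came from the same lysate. Organotypic entorhino-hippocampal tissue cultures are brain slices kept alive on a membrane with the entorhinal cortex attached. These were prepared at postnatal days 3 to 5 from C57BL/6 (Synpo+/+) mice of either sex, matured for at least 18 days and pooled, 6 cultures to a replicate. For the coIP, the homogenate in 0.05% NP-40, a mild detergent, was precleared with protein A beads and incubated with beads that carried a rabbit anti-synaptopodin antibody. All lysates, inputs included, held 0.5 mg/ml cycloheximide, which stalls ribosomes on their mRNAs. No library from beads with an unrelated antibody was analysed here. The same pull-down from 2 lysates labelled synaptopodin-deficient (Synpo-/-) and from 5 wildtype lysates of cultures with an entorhinal cortex lesion (ECL) served for comparison.

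Synaptopodin is an actin-binding protein of dendritic spines and of the axon initial segment. It is needed to form the spine apparatus, a stack of smooth endoplasmic reticulum in spines that stores calcium, and it binds alpha-actinins. Neurons translate part of their mRNAs in dendrites, close to synapses. An RNA can be pulled down when it is bound by a protein of the complex, when ribosomes translating it are held there, or when it sticks to beads or antibody, and the counts do not tell these routes apart. The values are relative amounts within a library, so a higher value means a larger share of the library and not more molecules.

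Total counts were 20576235 to 26730691 in the 5 inputs and 12888443 to 23155477 in the 5 coIP libraries. The shallowest library was the coIP of lysate 3. Neuronal marker genes summed to 9538 to 10855 CPM (counts scaled to the TMM-corrected library size) in the inputs and 6421 to 7653 in the coIP. Much of this sum was Snap25. It alone had 5163 to 6677 CPM in the inputs and 2140 to 3302 in the coIP, when scaled together with the Synpo-/- libraries. Markers of astrocytes summed to 21639 to 30016 CPM in the inputs and 26037 to 42701 in the coIP. Endothelial markers were near the floor, at 22.3 to 26.4 CPM in the inputs and 22.6 to 27.9 in the coIP. The tissue thus held neurons and glia in both fractions.

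The coIP differed from its input in most genes. Of 18222 genes tested, 6022 were higher in the coIP (33.0%) and 5371 were lower (29.5%), by edgeR's quasi-likelihood test with the lysate as a block and Benjamini-Hochberg adjustment. A gene was called when its adjusted p was under 0.05. Most differences were modest, since the median log2 fold change of coIP over input was 0.04 and the quartiles were -0.45 and 0.57. Larger differences, called and over 1 on the log2 scale, were found for 1815 genes higher and 1200 lower. Called genes moved in the same direction in all 5 lysates in 10226 cases. Nothing in the design sets an external standard, so higher and lower are relative to the average gene of the library.

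The mRNA of the bait itself was moderately higher in the coIP. Synpo (ENSMUSG00000043079.17) had 424, 504, 543, 592 and 673 normalised read counts in the inputs of lysates 1 to 5, and 573, 676, 846, 799.5 and 892 in their coIP. To obtain normalised read counts, the counts of a library were divided by its TMM-corrected size and brought to the geometric mean size of the 10 libraries. In each lysate the coIP was above its own input, although the groups overlapped. The means were 547 ± 93.3 and 757 ± 131 (SD, n = 5), with a log2 fold change of 0.47 (SE 0.0842, edgeR adjusted p = 0.000118). Lysate ratios were 0.41 to 0.43 on the log2 scale in 4 lysates and 0.64 in lysate 3.

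Alpha-actinins, which cross-link actin filaments and bind synaptopodin, were higher too. Actn1 (ENSMUSG00000015143.15, chromosome 12, 80167547 to 80260371, minus strand, GRCm38) had 359.6, 450.4, 379, 495 and 539 normalised read counts in the inputs and 748, 768, 849, 777 and 839.5 in the coIP. Here the fractions did not overlap, and the log2 fold change was 0.85 (SE 0.0978, edgeR adjusted p = 7.63e-07). Actn2 rose from 155 ± 38.0 to 243 ± 37.2 (log2 fold change 0.66, edgeR adjusted p = 0.00254) and Actn4 from 875 ± 187 to 1306 ± 183 (0.59, edgeR adjusted p = 0.000109). Of the 5 tested genes of the bait and its partners, 5 were higher and their median was 0.63. In the libraries labelled Synpo-/- the median of these genes was 0.66.

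Genes for calcium stores of the endoplasmic reticulum followed the same direction. Ryr2, a calcium release channel found with synaptopodin in spines, had 1063, 1488, 1748, 1353 and 1471 normalised read counts in the inputs and 2482, 2855, 4133, 2869 and 2972 in the coIP. Every coIP library was above every input library, at a log2 fold change of 1.10 (SE 0.0744, edgeR adjusted p = 2.48e-09). Itpr1, the neuronal IP3 receptor, had a log2 fold change of 0.84, and Atp2a2, the calcium pump that refills the store, one of 0.66. In this list of 15 tested genes, 10 were higher and 0 lower, with a median of 0.46. In the libraries labelled Synpo-/- the median was 0.50, with Ryr2 at 0.88, Itpr1 at 0.50 and Atp2a2 at 0.41.

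Among abundant protein-coding genes, large cytoskeletal and membrane-associated proteins stood on one side and small cytosolic proteins on the other. Sptb (chromosome 12, 76580488 to 76710547, minus strand), a beta spectrin of the membrane skeleton, had 232, 316, 297, 375 and 395 normalised read counts in the inputs and 898, 867, 857, 1180.5 and 1101.3 in the coIP. Every coIP value was above every input value, and the log2 fold change was 1.61 (SE 0.0950, edgeR adjusted p = 8.47e-10). It was among the 10 largest of genes with a mean of at least 10 CPM and one direction in all lysates. So were Atg2a (1.62), a lipid transfer protein of autophagy, the chromatin remodeller Chd5 (1.59) and Carmil3 (1.57), which regulates actin capping. Pcnx3 (1.55), the collagen Col5a1 (1.51), Rgl2 (1.49), the adhesion receptor Adgrb2 (1.48) and Tspoap1 (1.48), a presynaptic scaffold, also belonged to these 10.

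Aif1 (chromosome 17, 35170991 to 35176068, minus strand), which encodes the small microglial protein Iba1, was the most reduced within the same limits. It had 587, 539.6, 841, 881 and 764 normalised read counts in the inputs and 133, 199.9, 209, 201 and 236 in the coIP. The fractions were far apart, with a log2 fold change of -1.88 (SE 0.115, edgeR adjusted p = 1.25e-09). Pvalb, the calcium buffer parvalbumin, followed at -1.87. Cycs, cytochrome c, had 17030.2, 11167, 11561, 11221 and 9202 in the inputs and 4030.4, 4089.7, 2843, 2986 and 3299.6 in the coIP, a log2 fold change of -1.79 (SE 0.0941, edgeR adjusted p = 4.2e-10). The peptidyl-prolyl isomerase Pin4 (-1.79), the predicted gene Gm9844 (-1.79), Mllt11 (-1.76), Tstd3 (-1.75), the GTPase regulator Arhgdib (-1.70) and the actin-sequestering thymosins Tmsb10 (-1.73) and Tmsb4x (-1.69) completed this side.

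**Figure D1:**
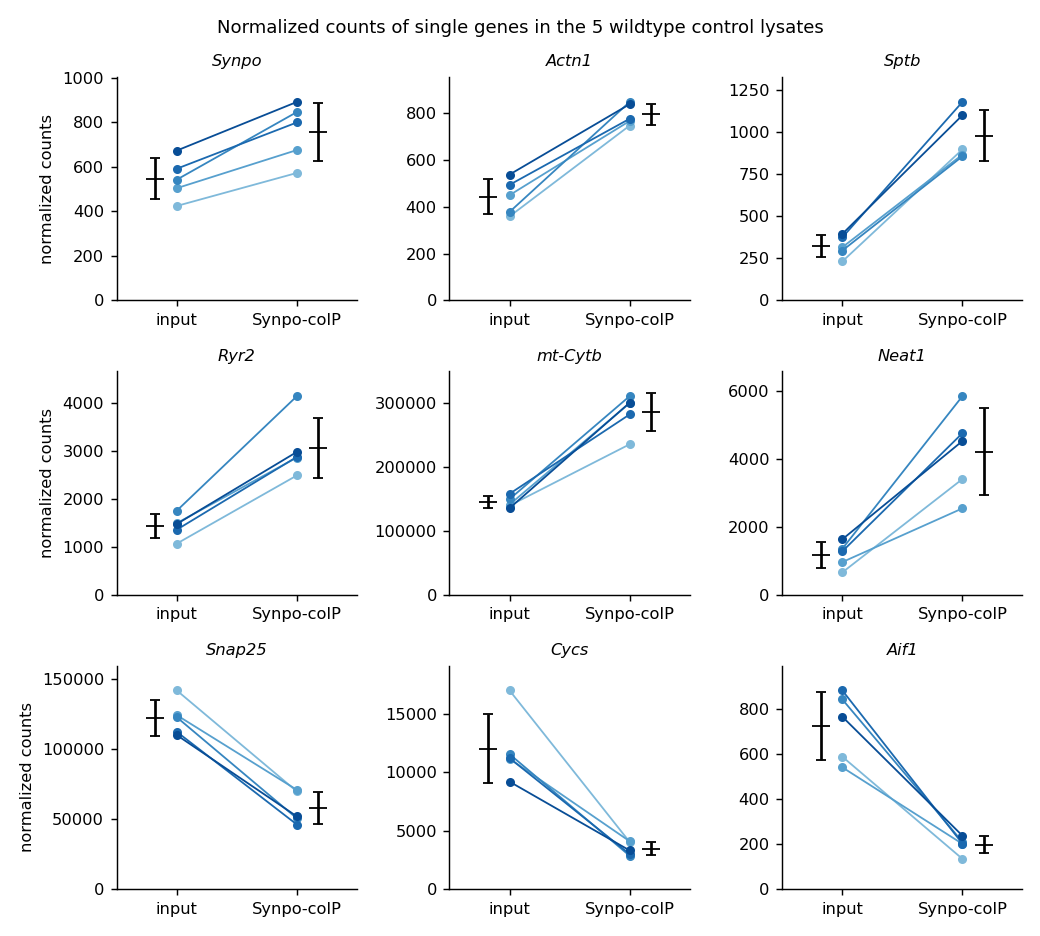
Normalised read counts (linear axes from 0) of named genes in input and Synpo-coIP, with a line for each of the 5 lysates of non-lesioned wildtype cultures and the mean ± SD of each fraction beside the points. Lines climb for Synpo, from 547 to 757 on average, and descend for Aif1, from 723 to 196.

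Genes higher in the coIP had long coding sequences, and genes lower in it had short ones. Coding length is the longest annotated coding sequence of a gene, and it was known for 14375 protein-coding genes tested. Across these genes the Spearman correlation of the log2 fold change with coding length was 0.69 in the fit and 0.57 to 0.67 in the 5 lysates. Genes are not independent replicates and all share the same libraries, so this is a description. When the genes were put into 10 bins by coding length, the bin of the shortest (median 405 bases) held 37 higher and 1121 lower of 1438 genes, and its median log2 fold change was -0.85. The bin of the longest (median 4837.5 bases) held 1210 higher and 25 lower of 1438, with a median of 0.75. The spread between lysates was small beside this distance, since the lysate medians were -1.07 to -0.65 for the shortest and 0.64 to 0.87 for the longest.

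The untranslated parts of the mRNA followed the fold change less closely. Correlations were 0.15 with the length of the 3′ untranslated region and 0.13 with that of the 5′ untranslated region. With coding length held constant by ranks, the correlation with the 3′ untranslated region was 0.12, whereas that with coding length was still 0.69 when the 3′ untranslated region was held constant. Among genes with coding sequences of at most 885 bases the median rose from -0.80 to -0.39 from the shortest to the longest 3′ untranslated regions, and among those with at least 2295 bases it lay between 0.56 and 0.61 throughout. The number of exons correlated at 0.48, but at -0.03 once coding length was held constant. Exonic length, the union of all annotated exons, correlated at 0.29 over all 18222 genes tested and at 0.50 over protein-coding genes. The GC content of the exons had a correlation of 0.01 over all genes, and 0.28 over protein-coding genes with coding length held constant. Between lysates these GC values varied, from -0.07 to 0.08 and from 0.07 to 0.33. The input level per kilobase of exon correlated at -0.45, and at -0.33 with coding length held constant. The same input counts are the denominator of the fold change, so noise in them alone would lower this correlation.

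**Figure D2:**
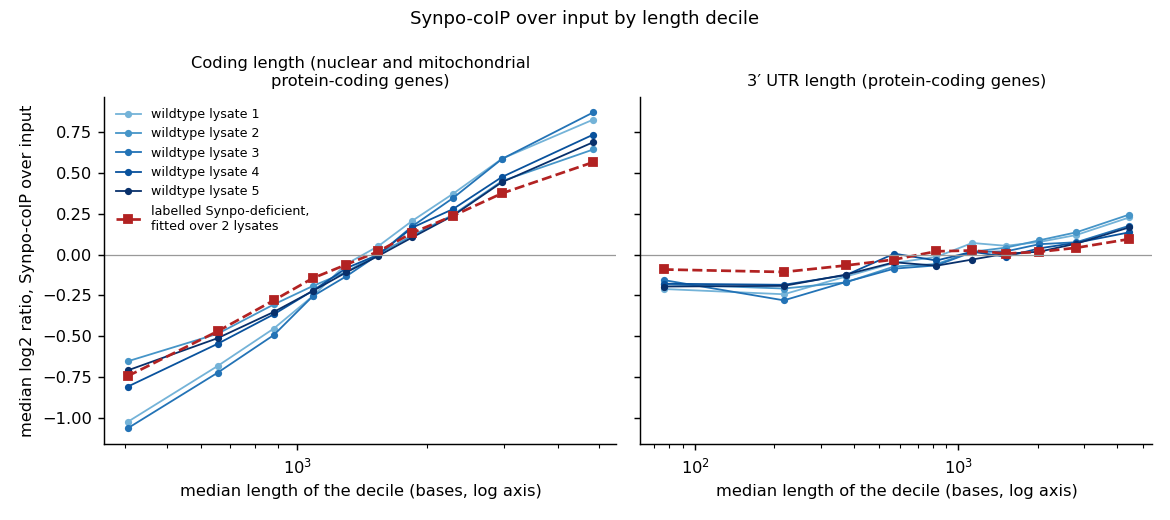
Median log2 fold change of coIP over input in 10 bins of genes ordered by coding length (left) or 3′ UTR length (right), against the median length of the bin (log axis), with a solid line for each of the 5 wildtype lysates and a dashed line for the libraries labelled Synpo-/-. Fitted medians over the wildtype lysates climb with coding length from -0.85 to 0.75, and with 3′ UTR length from -0.18 to 0.19.

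Library totals, taken from the same counts, gave the same picture. The mean log2 coding length of nuclear protein-coding genes, weighted by counts, was 10.2 ± 0.0350 in the inputs and 10.5 ± 0.0508 in the coIP (SD, n = 5). It was higher in the coIP in 5 of 5 lysates. Mitochondrially encoded genes were left out of this mean. The exact permutation test over 5 pairs cannot go below p = 0.0625, two-sided, which was the value here.

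Lists of cytoskeletal linkers, motor heavy chains and chromatin modifiers were among those with the most members higher. Of the 15 spectrins, ankyrins and giant cytoskeletal linkers, 15 were higher, with a median of 1.11. Sptbn1 (1.29) and Sptan1 (1.26) are subunits of the membrane skeleton, as is Sptb. Among 12 dynein and kinesin heavy chains, the force-producing subunits of microtubule motors, 11 were higher (median 0.92), such as Kif1b at 1.11. Of 27 chromatin modifiers, 26 were higher (median 0.85), with Chd3 at 1.16 and Arid1b at 1.05.

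Several synaptic lists also had most members higher, at medians that are read against 0.04 for all genes tested. Of 30 postsynaptic scaffolds, 27 were higher and 0 lower (median 0.66), among them Nlgn2 (1.17), an adhesion molecule of inhibitory synapses, Iqsec3 (1.11) and Sipa1l1 (0.98). Glutamate receptor genes were higher in 20 of 21 cases, with a median of 0.59 (0.42 in the libraries labelled Synpo-/-). Grik5, a kainate receptor subunit, had 116, 133, 134, 138 and 138 normalised read counts in the inputs and 298, 322, 388, 391.6 and 370.3 in the coIP. That is a log2 fold change of 1.42 (SE 0.114, edgeR adjusted p = 1.32e-08), and the NMDA receptor subunits Grin1 (1.19) and Grin2b (0.90) followed. Under the Synpo-/- label Grik5 was at 1.57, Grin1 at 1.15 and Grin2b at 0.40. Voltage-gated channels were higher in 28 of 29 cases (median 0.76), with Cacna1c, an L-type calcium channel, at 1.22. Active zone scaffolds of the presynaptic side were higher in 16 of 18 cases (median 0.72), such as Bsn at 1.01 and Pclo at 0.82. The protocadherins, adhesion molecules, were higher in 46 of 64 cases (median 0.62), but these genes share exons and sequence, so single members are uncertain.

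Actin regulators split by kind. Of 20 spine actin and myosin genes, 15 were higher and 3 lower. Ppp1r9b, spinophilin, had 812, 1355, 1147, 1351 and 1891 normalised read counts in the inputs and 1908, 2597, 2902, 3670.0 and 3949 in the coIP, a log2 fold change of 1.20 (SE 0.0823, edgeR adjusted p = 2.77e-09). The unconventional myosins Myo6 (0.96) and Myo5a (0.94), the latter a motor that carries endoplasmic reticulum into spines, were higher as well. The 3 lower members were Abi1 (-0.79), Abi2 (-0.45) and Wasf1 (-0.42), which belong to the WAVE complex. Other WAVE complex genes of this list, Cyfip1, Cyfip2, Nckap1 and Wasf3, were not called lower. Among 23 genes for actin monomers and small actin binders, 23 were lower (median -0.85), with Dstn (-1.40) and Cfl1 (-1.23), which sever filaments.

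Known dendritic mRNAs did not move as a block. Of 19 tested, 13 were higher and 3 lower, with a median of 0.65. The kinesins Kif5a (1.12) and Kif5c (0.88) were higher. Nrgn, neurogranin, had 1065, 1753, 1476, 1609 and 1500.1 normalised read counts in the inputs and 523, 863, 586, 665 and 718 in the coIP. It was lower in every lysate, at a log2 fold change of -1.14 (SE 0.0815, edgeR adjusted p = 3.95e-09), but it was not called with the trend on coding length removed (-0.14). Eef1a1, the elongation factor, was at -0.46. Bdnf was at -0.21, and it was not called without lysate 1 (-0.20) or lysate 4 (-0.15).

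Lists of ribosomal, respiratory chain and proteasome subunits, ubiquitin-conjugating enzymes and Rab GTPases had most members lower. Of 77 mitochondrial ribosomal proteins, 0 were higher and 71 lower (median -0.98), with Mrpl36 at -1.64 and Mrps12 at -1.40. Nuclear genes for complex I of the respiratory chain were lower in 36 of 38 cases (median -1.03), with Ndufv2 at -1.28, and those for complexes III to V in 36 of 42 (median -0.88), with Atp5g3 at -1.32. Cox6a1 was the 1 member of the latter group that was higher, at 0.31 (edgeR adjusted p = 0.0183), but it was not called without lysate 4 (0.22) or lysate 5 (0.20). Cytosolic ribosomal proteins, with Rpl23 at -1.36, were lower in 77 of 81 cases (median -0.86), proteasome subunits, with Psma2 at -1.31, in 35 of 38 (median -0.84), ubiquitin-conjugating enzymes in 26 of 34 (median -0.83) and Rab GTPases, with Rab3b at -1.39, in 36 of 55 (median -0.52). Many of these genes have processed pseudogene copies, which makes their counts uncertain.

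Some groups had no single direction. Of 31 synaptic vesicle and SNARE genes, 8 were higher and 12 lower (25.8% and 38.7%, median -0.10), against 33.0% and 29.5% of all genes tested. Snap25, a membrane fusion protein and among the most counted neuronal genes, had 141653, 124014, 122541, 112104 and 109783 normalised read counts in the inputs and 69563, 70679.6, 50357, 45960.1 and 51750.2 in the coIP. Its log2 fold change was -1.10 (SE 0.074, edgeR adjusted p = 2.45e-09), while the larger vesicle protein Sv2a was higher at 0.73. Slc17a7, the vesicular glutamate transporter, was at 0.71, and the synuclein Sncb was lower at -1.31. GABA receptor genes gave 3 higher and 4 lower of 14 (21.4% and 28.6%), the latter share near that of all genes tested. Gabbr2 (0.85) and Gabbr1 (0.63), the subunits of the metabotropic receptor, were above, and the ionotropic subunits Gabra4 (-0.50) and Gabra5 (-0.45) below.

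Secretory and metabolic groups were mixed as well. Granins and neuropeptides gave 3 higher and 10 lower of 21, with the processing enzymes Cpe (0.54) and Pcsk2 (0.34) on one side and the short peptide precursors Sst (-1.31) and Npy (-1.09) on the other. Endoplasmic reticulum chaperones and translocon genes gave 7 and 15 of 31, with Rrbp1 (0.62), a ribosome receptor, and Sec61b (-1.40), a small subunit of the translocon. Lysosomal enzymes gave 9 and 6 of 25, such as Gaa (0.83), which degrades glycogen, and Npc1 (0.81), a cholesterol transporter, which was not called with the coding length trend removed (0.19). The 36% higher and 24% lower lay near the 33.0% and 29.5% of all genes tested. Glycolytic enzymes gave 6 and 8 of 16 (37.5% and 50%), the former share near that of all genes tested. Hk1 (0.71) and Pfkm (0.56), kinases at the head of the pathway, were above, and Tpi1 (-1.06) and Gapdh (-0.71) below.

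RNA granule proteins gave 10 higher and 7 lower of 25, shares (40.0% and 28.0%) near those of all genes tested. Tnrc6b (0.79) and Ago2 (0.74), of the microRNA silencing complex, were higher, while the dendritic transport proteins Stau2 (-0.87), Purb (-0.55) and Stau1 (-0.33) were lower. Immediate early genes, which neurons induce with activity, gave 7 and 3 of 17 (41.2% and 17.6%, against 33.0% and 29.5% of all genes tested). Arc, whose mRNA is sent into dendrites, had 73.7, 69.8, 34.3, 61.8 and 146 normalised read counts in the inputs and 139.9, 133, 124, 152 and 173 in the coIP (log2 fold change 1.00, SE 0.194, edgeR adjusted p = 0.000239). Input 5 exceeded 3 of the coIP libraries, although each lysate had more in its coIP. Jun was at 0.56, and Btg2 (-0.76), Egr1 (-0.65) and Fos (-0.38) were lower. Fos was not called without the replicate block (edgeR adjusted p = 0.0791) or with the trend on exonic length (-0.0053), exonic length and GC (-0.064) or coding length (-0.17) removed. Zfp genes, which mostly encode zinc finger proteins, were higher in 63 and lower in 143 of 355, with Zfp536 at 0.97 and Zfp617 at -0.96.

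**Figure D3:**
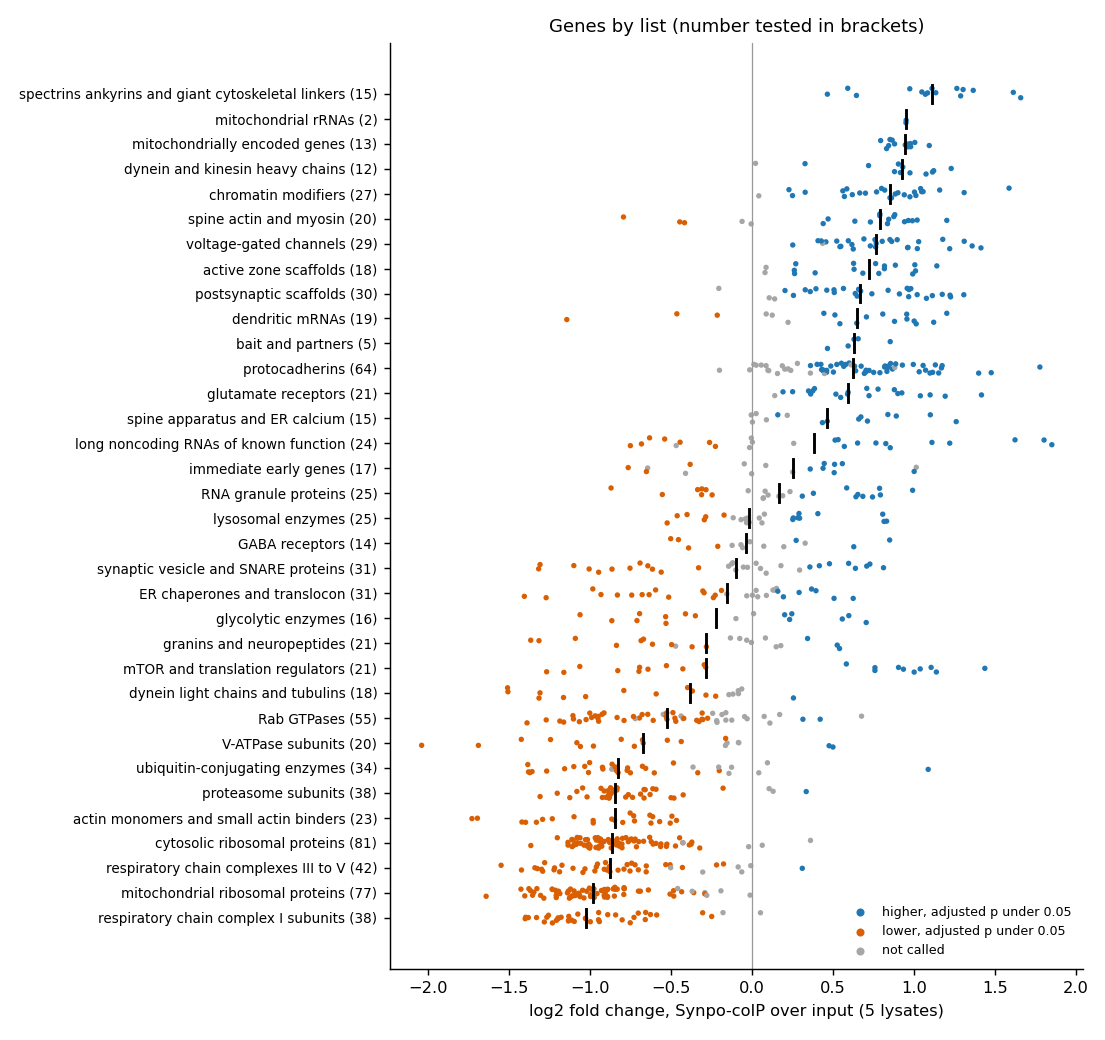
Log2 fold change of coIP over input of the members of each gene list (points, coloured where called), with the median of each list as a bar. Spectrins and their relatives have the highest nuclear median at 1.11, and complex I subunits the lowest at -1.03.

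Subunits of the same complex went opposite ways. Dync1h1, the heavy chain of cytoplasmic dynein with a coding length of 13932 bases, had 2342, 2866, 2784, 2757 and 3258 normalised read counts in the inputs and 6298, 5693, 7067, 6667 and 7046 in the coIP (log2 fold change 1.23, SE 0.0766, edgeR adjusted p = 1.36e-09). Dynll1, a light chain of the same motor with 267 bases, had 6228, 7446, 8931, 8339 and 8499 in the inputs and 2020.3, 2788, 2851, 2979 and 3326 in the coIP (-1.50, SE 0.0721, edgeR adjusted p = 3.79e-10). Neither gene's fractions overlapped. Light chains and tubulins together gave 1 higher and 12 lower of 18, with Dynlrb1 (-1.51) and Dctn5 (-1.31) among the latter.

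The proton pump of vesicles and lysosomes had members on both sides. Atp6v0a2 (0.50) and Atp6v0a1 (0.48), its largest membrane subunits, were higher, while Atp6v1g2 (-1.69), Atp6v1g1 (-1.42) and Atp6v1f (-1.24), short subunits of the catalytic head, were lower. Over 20 V-ATPase genes, 2 were higher and 14 lower. In the control of translation, Rptor (1.14), Mtor (1.04) and Eif4g1 (1.00) were higher. Eif4e (-1.27), the cap-binding protein that Eif4g1 holds, and Eif5a (-1.16) were lower, for 10 higher and 11 lower of 21 in all. With the coding length trend removed, Mtor (0.16), Atp6v0a1 (0.10) and Atp6v0a2 (0.11) were not called. Ube2o, the longest ubiquitin-conjugating enzyme among those named, with 3864 coding bases, was higher at 1.09, and Ube2b, with 456, was lower at -1.38.

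Genes of the mitochondrial genome departed from the order by length. All 13 protein genes tested were higher, by 0.79 to 1.09 on the log2 scale, although their median coding length was 784 bases. The cytochrome b gene mt-Cytb had 139325, 141010.0, 149486, 157800.0 and 135253 normalised read counts in the inputs and 235267, 299518, 310551, 281950.0 and 300333 in the coIP. It was higher in every lysate (log2 fold change 0.98, SE 0.0692, edgeR adjusted p = 3.75e-09). Both mitochondrial rRNAs, mt-Rnr1 and mt-Rnr2, were higher by 0.95. As a share of all counts, the mitochondrially encoded protein genes made up 1.76 ± 0.0940% of the inputs and 3.70 ± 0.256% of the coIP, higher in 5 of 5 lysates (exact paired permutation test, two-sided p = 0.0625, the smallest it can give). The nuclear respiratory chain genes went from 2.18 ± 0.232% to 1.48 ± 0.176%, lower in 5 of 5 lysates with the same p. Nuclear copies of mitochondrial sequence can share these reads.

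With the trend on coding length removed within each library, the number of genes called decreased but stayed large. Of the 14375 genes, 3601 were higher (25.1%) and 3517 lower (24.5%). Relative to genes of similar coding length, Synpo was no longer called (log2 fold change -0.08, edgeR adjusted p = 0.451). With the trends on exonic length and GC removed instead, it was lower in the coIP, at -0.19 (edgeR adjusted p = 0.0373). Also not called once the coding length trend was removed were Ryr2 (0.04), Itpr1 (-0.06), Actn2 (0.24), Actn4 (0.15), Bsn (0.0086), Tnrc6b (0.030) and Npy (-0.15). Still higher were Actn1 (0.44), Ppp1r9b (0.85), Sptb (0.77), Grik5 (0.94), Nlgn2 (0.80) and Grin1 (0.73). Dendritic mRNAs had 12 higher and 3 lower of 19 (median 0.50), postsynaptic scaffolds 14 and 2 of 30 (median 0.19), and voltage-gated channels 17 and 1 of 29 (median 0.22). Chromatin modifiers had 6 higher and 9 lower of 27 (median -0.04) and active zone scaffolds 3 and 8 of 18 (median -0.09). Glutamate receptors had 8 higher and 4 lower of 21 (median 0.13), and spine actin and myosin genes 6 and 4 of 20 (median 0.08). Calcium store genes had 4 and 2 of 15 (median 0.04), and the bait and its partners 1 and 0 of 5 (median 0.15).

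On the other side, small actin binders stayed lower in 20 of 23 cases, proteasome subunits in 33 of 38 and mitochondrial ribosomal proteins in 54 of 77. Cytosolic ribosomal proteins had 9 higher and 35 lower of 81 (median -0.11) and Rab GTPases 20 and 17 of 55 (median 0.09). The mitochondrially encoded genes were higher in 13 of 13 cases with a median of 1.33.

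Genes at the ends of this scale, chosen after their values were seen, included several that depart from their length. The genes ranked here were nuclear, had a mean of at least 10 CPM and moved in one direction in all lysates. Highest among them were Rasl10b (1.89), D430019H16Rik (1.68), Lynx1 (1.61), which modulates nicotinic receptors, and Cabp7 (1.54), a neuronal calcium-binding protein. Mobp, which encodes a small myelin protein, reached 1.499. Lowest was Naca (-2.13), a chaperone of nascent chains whose longest annotated coding sequence of 6561 bases is that of a long isoform. Plb1 (-1.62), Diaph3 (-1.44), Shroom2 (-1.43) and Mylk (-1.42) followed.

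By annotated gene type, transcripts that lie in introns stood apart. Of 1129 genes of type TEC, which are unspliced models that await experimental support, 835 were higher and 34 lower, with a median log2 fold change of 1.13. Sense intronic genes were higher in 86 and lower in 4 of 112 (median 1.05). Protein-coding genes had 4494 higher and 4721 lower of 14375 (median -0.01), and lincRNAs 99 higher and 165 lower of 660 (median -0.16).

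Position made a difference within a type. TEC genes inside an intron of a coding gene on the same strand were higher in 663 of 777 cases (median 1.25), and those outside coding genes in 83 of 200 (median 0.47). Of the 772 intronic TEC genes whose host gene was tested, 728 had a larger log2 fold change than the host, whose median was 0.34. Antisense genes within an intron had a median of 0.89 (91 higher and 7 lower of 148), those that overlap a coding exon one of 0.14 (136 and 84 of 500) and those outside coding genes one of -0.34 (4 and 14 of 39). In the libraries labelled Synpo-/- the median was 1.26 for TEC genes in a same-strand intron. Sense intronic genes in such introns had a median of 1.09 there, and antisense genes within an intron one of 0.80. Counting ignored the strand, so reads of an intron of the host and of a gene model inside it cannot be told apart. TEC and sense intronic genes together held 0.291 ± 0.0297% of the input counts and 0.611 ± 0.106% of the coIP counts, higher in 5 of 5 lysates (exact paired permutation test, two-sided p = 0.0625).

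**Figure D4:**
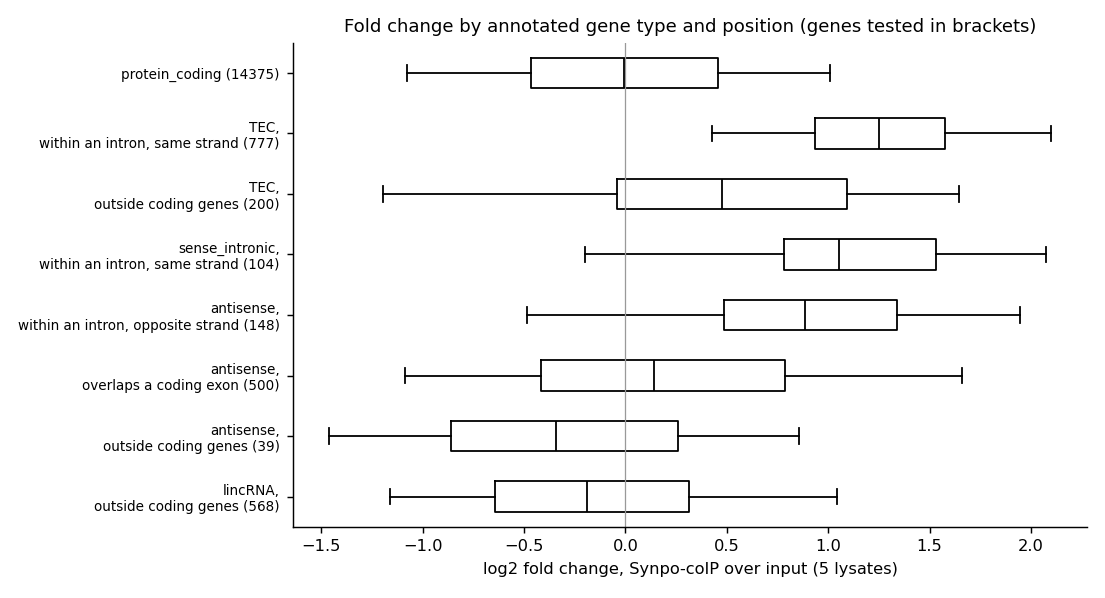
Log2 fold change of coIP over input by annotated gene type and by position relative to introns of coding genes, with the median, the quartiles (box) and percentiles 5 and 95 (whiskers). TEC genes within an intron on the same strand have a median of 1.25, against -0.19 for lincRNAs outside coding genes.

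Long noncoding RNAs as a class were not shifted, with 480 higher and 378 lower of 1888 and a median of 0.01, but single ones were far from it. With the exonic length trend removed, 699 were higher and 160 lower. Neat1 (chromosome 19, 5824708 to 5845478, minus strand), the architectural RNA of nuclear paraspeckles, had 658, 963, 1356, 1279 and 1635 normalised read counts in the inputs and 3414, 2548, 5862, 4768 and 4536 in the coIP. Every coIP library exceeded every input, at a log2 fold change of 1.85 (SE 0.115, edgeR adjusted p = 1.36e-09). Dnm3os, a long antisense transcript, was at 1.93. Kcnq1ot1, a chromatin-bound imprinted RNA, had 2065, 2638, 2138, 2537 and 2658 in the inputs and 7948, 5941, 8962, 8260.4 and 6235 in the coIP, a log2 fold change of 1.62 (SE 0.112, edgeR adjusted p = 3.07e-09). Gm43847 (1.78), Gm47591 (1.72) and the imprinted host transcript Snhg14 (1.11) were higher as well.

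Lower were 1500015A07Rik (-1.77), 4930447M23Rik (-1.48), Gt(ROSA)26Sor (-1.27), 2010320M18Rik (-1.23) and 2010204K13Rik (-1.20). Of 24 long noncoding RNAs with a known function, 12 were higher and 7 lower, and Pantr1 (-0.75), Pvt1 (-0.63) and Jpx (-0.54), an activator of X inactivation, were among the latter. The share of counts in long noncoding RNAs was higher in the coIP in 2 of 5 lysates, at 2.10 ± 0.0234% and 2.24 ± 0.343% (exact paired permutation test, two-sided p = 0.5).

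Marker lists of neuronal cell types each held members of both directions. Pan-neuronal markers gave 3 higher and 6 lower of 16 (median -0.08), and within them Map2, the long dendritic microtubule protein, was at 0.51 and Stmn2, a short one of growing axons, at -1.14. Markers of dentate granule cells gave 8 higher and 3 lower of 14 (median 0.40), with Dock10 (0.98) and Calb1 (-0.72). CA3 pyramidal cells gave 4 and 5 of 14 (median 0.05), with Prkcd (0.82) and Crym (-0.90). The shares of these CA3 markers (28.6% and 35.7%) lay near the 33.0% and 29.5% of all genes tested. CA1 and entorhinal pyramidal cells gave 5 and 2 of 12 (41.7% and 16.7%, median 0.10), with Fibcd1 (1.17), Reln (0.79) and Etv1 (-0.60). Interneurons gave 6 and 9 of 17 (35.3% and 52.9%, median -0.33), with the potassium channel Kcnc1 (1.02) and the receptor Erbb4 (0.89) above. Pvalb, the lowest member at -1.87, Sst and Npy were among the 9 lower. After removal of the coding length trend the medians of these groups were -0.17, -0.18, 0.06, 0.01 and 0.14.

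Glial lists were shifted in part. Astrocyte markers gave 10 higher and 1 lower of 18, and 14 and 0 of 18 with the coding length trend removed (median 0.37). Aldh1l1 (0.98) and Slc4a4 (0.93) were higher, and Glul, glutamine synthetase, was at -0.23 but not called without lysate 1 (-0.17) or lysate 3 (-0.16). Microglia markers gave 3 higher and 17 lower of 22 (median -0.40), and 2 and 10 with the trend removed. Csf1r, the receptor that keeps microglia alive, had 613, 665, 1379, 1319 and 1641 normalised read counts in the inputs and 999.9, 778, 2429.7, 2137 and 2263 in the coIP (log2 fold change 0.58, SE 0.0876, edgeR adjusted p = 1.63e-05). Fcer1g, a short signalling adaptor of the same cells, had 1664, 1582, 2084, 2126 and 1910.4 in the inputs and 598, 701, 727, 719 and 809 in the coIP (-1.39, SE 0.0827, edgeR adjusted p = 9.26e-10). Itgam (0.77) was higher and Tyrobp (-1.08) lower. Csf1r was not called without the replicate block (edgeR adjusted p = 0.122), and neither Csf1r (0.11) nor Itgam (0.20) was called with the coding length trend removed.

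Oligodendrocyte markers gave 4 higher and 9 lower of 16, and 7 and 1 with the trend removed. Mbp, myelin basic protein, whose mRNA travels into myelin processes, had 4112, 8678, 16452, 19229.5 and 25883 normalised read counts in the inputs and 7658, 11636, 31238, 45059 and 48622 in the coIP. It was higher in each lysate (log2 fold change 0.88, SE 0.0885, edgeR adjusted p = 1.63e-07), over inputs that themselves spanned more than the difference. Mobp was at 0.75, Myrf, a transcription factor of myelination, at 1.06, and Ermn at -0.86. Precursors of oligodendrocytes gave 4 higher and 0 lower of 10, with the proteoglycan Cspg4 at 1.40. Endothelial cells gave 3 and 2 of 9, shares (33.3% and 22.2%) near the 33.0% and 29.5% of all genes tested. Pericytes and fibroblasts gave 5 and 2 of 10, and ependyma and choroid plexus, with Ttr at -1.22, 0 and 6 of 10. Ttr had 8321 and 2017 normalised read counts in inputs 1 and 2 but 11.4 to 26.6 in inputs 3 to 5. Without the replicate block Mbp, Mobp, Myrf and Ttr were not called (edgeR adjusted p 0.0504 to 0.527). In whole-culture lysates, fewer cells of a type and less RNA per cell cannot be told apart.

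The libraries labelled Synpo-/- served as the background of the pull-down. Synpo was at 25.97 and 29.4 CPM in their inputs and at 30.2 and 25.4 CPM in their coIP, against 20.01 to 31.7 CPM in the wildtype inputs and 26.7 to 41.7 CPM in the wildtype coIP. The targeted gene was thus not lower under the Synpo-/- label, and since counts per gene cover all exons they do not check the genotype. These 4 libraries were deeper, with 42886994 to 53682143 total counts, and were 2 lysates only. Their titles have another form than those of the wildtype libraries and name neither control nor lesion. Genotype, sequencing depth and any other difference of these libraries from the wildtype ones cannot be told apart here.

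Most genes that were higher in wildtype were higher in these libraries too. Of the 6022 genes higher in the wildtype coIP, 5677 had a log2 fold change above 0 under the Synpo-/- label (median 0.59, against 0.76 in wildtype). Of the 5371 lower ones, 5041 were below 0 (median -0.56 against -0.70). List medians were 0.49 for postsynaptic scaffolds and 0.49 for voltage-gated channels under this label, against 0.66 and 0.76 in wildtype. Across 18222 genes the log2 fold changes of the 2 genotypes, from separate libraries, correlated with Pearson's r 0.82 and Spearman's rho 0.84. The Spearman correlations with coding length were 0.53 and 0.58 in the 2 lysates, with a mean of 0.625 ± 0.0384 in wildtype (exact permutation test of 5 against 2 lysates, two-sided p = 0.190, smallest possible 0.0952). For exonic length the mean was 0.215 over the 2 lysates, both below every wildtype lysate, and 0.266 ± 0.0129 in wildtype (exact permutation test, two-sided p = 0.0952, the smallest possible).

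The difference between the genotypes in coIP over input was tested for 20621 genes, and 61 were called (0.296%), 24 with a larger and 37 with a smaller value in wildtype. An unadjusted p under 0.05 was found for 2644. Synpo was at 0.45 in wildtype and 0.00 under the Synpo-/- label, a difference of 0.45 (SE 0.149, edgeR adjusted p = 0.191). Actn1 was at 0.84 and 0.87, Neat1 at 1.84 and 1.92, and mt-Cytb at 0.96 and 0.79, in the fit over both genotypes. All 13 mitochondrially encoded protein genes had a larger value in wildtype, with a median difference of 0.36, and 2 of the 13 were called. Those 2 were at 0.87 and 0.83 in wildtype, and at -0.01 and -0.17 under the Synpo-/- label. For Sptb the difference of 0.56 did not pass (SE 0.190, edgeR adjusted p = 0.201).

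Among the genes called, the neuropeptide Sst was at -1.33 in wildtype and -0.24 under the Synpo-/- label (edgeR adjusted p of the difference 0.00418). It had 990.1, 551, 429, 487 and 398 in the wildtype inputs and 379, 231, 158, 180.1 and 183 CPM in their coIP, and 453 and 408 in the Synpo-/- inputs against 365 and 363 in the coIP. Npy, another interneuron peptide, was at -1.10 and -0.26. Map1b, a microtubule protein of axons and dendrites, had 3258, 3301, 3809.7, 3499.7 and 2982 CPM in the wildtype inputs and 4923, 5252, 5539.8, 5315 and 5025 in their coIP, and 3618 and 3336 against 3133 and 3561 under the Synpo-/- label. Its values were 0.63 and -0.06 (edgeR adjusted p of the difference 0.0197). Zfp106 (0.75 and -0.06), Mbp (0.86 and -0.19) and Carhsp1 (-0.16 and -1.29) were also larger in wildtype. Vim (0.26 and 1.07), the astrocytic intermediate filament, and Syp (0.40 and 1.06), synaptophysin, were smaller. The 61 calls rest on 2 lysates under the Synpo-/- label. Without the block for the lysate, or without Synpo-/- lysate 1, there were 0, and the lysate left out set the number (0 to 103 larger and 0 to 179 smaller).

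**Figure D5:**
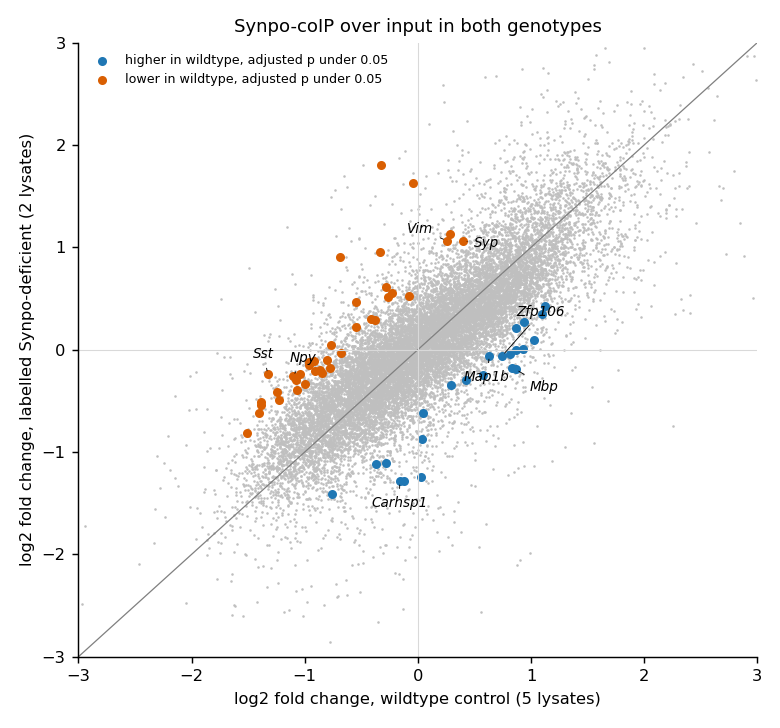
Log2 fold change of coIP over input in wildtype control (horizontal) and in libraries labelled Synpo-/- (vertical), one point per gene. Genes whose difference was called are coloured, 60 of 61 of them among the 18222 genes plotted, and 17 genes lie outside the axes.

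An entorhinal cortex lesion did not leave a detectable mark on the comparison. The lesioned lysates gave a log2 fold change of the same sign for 5938 of the 6022 higher and 5342 of the 5371 lower genes. In the test of the difference between lesioned and control lysates, 0 of 19581 genes were called (0%), with 752 at an unadjusted p under 0.05. DESeq2 also called 0. Coding length correlated with the log2 ratio at 0.58 to 0.66 in the lesioned lysates, and the exact permutation test of 5 against 5 gave p = 0.976, two-sided.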

How the data were processed

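RNA was measured in 10 libraries, a Synpo-coIP and an input of each of 5 lysates from non-lesioned wildtype cultures. Per the labels and the methods of the study, RNA was released from the beads with proteinase K, libraries were made with a low-input kit and sequenced in pairs, reads were trimmed with cutadapt 3.5 and mapped to mm10 with STAR 2.7.8a, and featureCounts 2.0.1 assigned them, unstranded, to exons of GENCODE M25. As deposited, the values are raw counts per gene symbol, which the authors did not normalize, and the depth was 12888443 to 26730691 counts per library. Of 55291 symbols, 107 stand for more than 1 gene and are not named. Reads of antisense partners, pseudogenes and paralogs could thus be assigned to the wrong gene.

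Counts were analysed with edgeR 4.0.16 in R 4.3.3 (TMM, filterByExpr, quasi-likelihood test, Benjamini-Hochberg over all genes tested), with the lysate as a block and a gene called at an adjusted p under 0.05. The number pairs the libraries because coIP and input came from the same lysate. The deviations of the libraries of a pair from their group means correlated at 0.306 to 0.638 over 13411 genes. In 3 of the 5 pairs the highest correlation with a library of another lysate was 0.190 or less, in lysate 3 it was 0.345 against 0.349 within the pair, and in lysate 2 it was 0.443 against 0.306. Differences from the lesioned lysates and from those labelled Synpo-/- were tested as interactions. Titles of the inputs labelled Synpo-/- hold numbers that contradict each other, and lysates were paired by the SPko number. The study analysed these counts with DESeq2 (here version 1.42.0), which was run as an alternative. Where trends were removed, each library got offsets from a lowess (span 0.3, genes with a mean count over 50) on exonic length, on exonic length and GC, or on coding length. The last was chosen after seeing the data. Lengths came from the annotation deposited with the counts, and GC from the GRCm38 sequence. Single values per library were compared by exact permutation tests over the 5 pairs. The fits were tested on simulated data.

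Named are the bait and its partners, the 10 coding genes with at least 10 CPM and the 5 long noncoding RNAs with at least 5 CPM that had the largest change in each direction among those called and alike in all lysates, the mitochondrial genes, members from the up to 3 per list and direction with the smallest p, and genes of the interactions by the same rule. Members and lists were chosen with earlier results of these data known. Biological replicates were pools of cultures. With the lysate as a block, p-values measure the spread between pools of coIP over input, and not that of the levels. Libraries carry no molecular identifiers. Regional libraries of the series were not used here. Some genes that the rule covers are not reported here.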

Additional observations from a re-analysis of the deposited data

Results flagged for a closer look

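Sets of 5 values were tested in each of the named genes (lysate ratios) and each library share. In 4 of 185 such sets, all of them lysate ratios, 1 lysate stood far from the others by Dixon's criterion, which compares the gap to the nearest lysate with the whole range (critical value 0.71). Chance gives about 1 such set in 20. For Synpo the quotient was 0.878, with 0.64 in lysate 3 and 0.41 to 0.43 in the others on the log2 scale. For Mtor it was 0.730, again with lysate 3 highest (1.23 against 0.95 to 1.03). For Vim it was 0.717, with lysate 3 lowest (0.11 against 0.28 to 0.34). For Arid1b it was 0.734, with lysate 2 highest (1.24 against 0.95 to 1.03). Lysate 3 had the shallowest coIP library, and the part of depth in these values was not tested.

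For 10 of the genes named, the log2 fold change of coIP over input differed between wildtype and the libraries labelled Synpo-/- by edgeR's interaction test with Benjamini-Hochberg adjustment. Wildtype minus Synpo-/- was positive for Carhsp1 (1.13), Mbp (1.06), Zfp106 (0.81) and Map1b (0.69). It was negative for Sst (-1.09), Npy (-0.84), Vim (-0.81), Crym (-0.81), Uchl1 (-0.67) and Syp (-0.66). Uchl1 was chosen after its value was seen. The targeted gene was not lower under the Synpo-/- label, and these values rest on 2 lysates of greater depth.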

How the results depend on the processing

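The numbers of genes higher and lower in the coIP stayed within 1.5 times 6022 and 5371 without the replicate block (5389 and 4642), with DESeq2 (5572 and 5462), with RLE size factors, without a filter on low counts, with exonic length or exonic length and GC trends removed, and without each lysate (5426 to 5956 and 4852 to 5346). They fell to 3601 and 3517 with the coding length trend removed, where 14375 genes were tested, and to 1815 and 1200 with a log2 fold change over 1. Of 165 named genes, 164 kept direction and call with DESeq2, 155 without the block and 154 with the exonic length trend removed, as did 121 of 149 with the coding length trend removed. Not called without the block were Bdnf, Cox6a1, Csf1r, Fos, Glul, Mbp, Mobp, Myrf, Npy and Ttr. Direction turned for Synpo (-0.19 with length and GC removed, -0.075 with coding length removed), Map2 (-0.043 with exonic length removed, -0.28 with coding length removed), Eef1a1 (0.021) and Bsn (-0.025), both with length and GC removed, and, with coding length removed, for Itpr1 (-0.058), Bdnf (0.21), Pclo (-0.25), Rrbp1 (-0.054), Btg2 (0.016), Reln (-0.17), Map1b (-0.22) and Zfp106 (-0.018). Of lists whose median differed from 0 by more than its SD over the lysates, those that turned with coding length removed were active zone scaffolds (-0.093), synaptic vesicle and SNARE genes (0.075), mTOR and translation regulators (0.031), RNA granule proteins (-0.017), chromatin modifiers (-0.043), granins and neuropeptides (0.13), Rab GTPases (0.092), and markers of granule cells (-0.18), interneurons (0.14) and oligodendrocytes (0.18). With exonic length removed, dynein light chains and tubulins (0.045), RNA granule proteins (-0.050) and oligodendrocyte markers (0.0026) turned, and with length and GC removed granins and neuropeptides (0.021) and endoplasmic reticulum chaperones (0.023). Medians nearer 0 turned too, those of lysosomal enzymes with exonic length (0.27), length and GC (0.19) or coding length (0.080) removed, of GABA receptors (0.026) and endothelial markers (0.060) with coding length removed, of CA3 pyramidal markers with exonic length removed (-0.021) and of CA1 and entorhinal markers with length and GC removed (-0.012). Without 1 lysate, those of GABA receptors, lysosomal enzymes, CA3 pyramidal and endothelial markers also turned, to values of -0.031 to 0.072. Long noncoding RNAs lower numbered 160 with exonic length removed, and with length and GC removed 743 were higher and 134 lower. Apart from the trends removed by construction, the cause of these shifts was not tested.

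The correlation with exonic length (0.29) was 0.50 over protein-coding genes, 0.35 with the longest transcript, 0.57 over genes of at least 10 CPM and -0.17 once that trend was removed. The correlation with coding length (0.69) was 0.78 over genes of at least 10 CPM and 0.44 with the exonic length trend removed. In an exact permutation test without pairs, p was 0.00794, the smallest possible, for the differences in mitochondrially encoded genes (1.93 percentage points), cytosolic ribosomal proteins (-0.469), nuclear respiratory chain genes (-0.695) and mean log2 exonic length (0.191).

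Genes called larger and smaller in wildtype than under the Synpo-/- label (24 and 37) numbered 178 and 230 with DESeq2, 10 and 19 with the other pairing of the Synpo-/- libraries, and 0 and 0 without the replicate block. Leaving out a lysate gave 0 to 103 and 0 to 179, the most without wildtype lysate 2. Where a Synpo-/- lysate was left out, the lone one was assumed to vary like the wildtype lysates. For the lesion, every alternative gave 0 calls. Depth limits genes with few counts, and intervals from counting alone would understate the spread.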
